A study of Mus musculus with 7 samples.

Results

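The genes described here move chloride and sodium across the epithelium that lines the uterus. They are 10 genes chosen by symbol, of 24964 gene symbols in the deposited table: Cftr, Ano1, Slc26a6 and Slc12a2 on the chloride side, Scnn1a, Scnn1b and Scnn1g, the subunits of the epithelial sodium channel ENaC, and the regulators Slc9a3r1, Sgk1 and Prss8. RNA was sequenced from whole uterus of 12-week-old mice recorded as being in diestrus. The 3 control libraries (numbers 1, 2 and 4) were from Pgrcre/+ mice, and the 4 libraries labelled Foxl2-LSL (numbers 1 to 4) were from Pgrcre/+Foxl2LsL/+ mice, so the Cre allele in the progesterone receptor gene was present in all 7 libraries. Pgr-Cre acts wherever that receptor gene is active, which in the uterus includes epithelium, stroma and muscle. The labels do not say which cells recombined. The series title names overexpression of FOXL2, an ovarian forkhead transcription factor, and its effect on the uterus as the question.

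Uterine fluid is set by secretion and uptake of salt, which water follows. CFTR is the apical chloride and bicarbonate channel opened by cyclic AMP, and it is known to rise under estrogen in the rodent uterus. ENaC takes sodium back up across the apical membrane, is opened further by proteases that cut its subunits, and is known in this tissue for fluid uptake under progesterone and around implantation.

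Values are FPKM, fragments scaled to gene length and to the depth of the library, which puts genes and libraries on a common scale. That scaling does not correct for differences in RNA composition between libraries. A gene was tested where its mean was at least 1 FPKM over the 7 libraries, which left 13334 genes and 9 of the 10 described here (Scnn1g was below). Groups were compared with limma on log2(FPKM + 1), with Benjamini-Hochberg adjustment over all tested genes and a threshold of 0.05. Each log2 fold change is the libraries labelled Foxl2-LSL minus the controls on that scale, which understates the change of low genes.

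Foxl2 itself checks the labels. It was at 11.1, 19.3 and 12.9 FPKM in controls 1, 2 and 4, and at 12.7, 14.3, 14.8 and 17.2 FPKM in the libraries labelled Foxl2-LSL 1 to 4 (log2 fold change 0.06, SE 0.18, limma adjusted p 0.818). Whether reads of the transgene are counted under this symbol is not given in the sources used here. No rise was found, so directions are given for the labels as they stand. Control 4 stood apart from the other two controls in several marker lists. The 10 simple epithelium markers summed to 632 FPKM in control 4, against 1300 and 945 FPKM in controls 1 and 2, and the summed progesterone response markers were at 385 against 204 and 229 FPKM. Between the groups, 6 of 7 tested estrogen response markers were higher in the libraries labelled Foxl2-LSL (sums of 149.6 to 440.5 FPKM in controls and 1079 to 2614 FPKM), and 5 of 8 progesterone response markers were lower (sums of 204 to 385 and 126 to 139 FPKM). Marker sums of several other cell types also separated the groups, among them uterine glands, given below with the epithelial markers. Ionocyte markers summed to 0.662 to 1.007 FPKM in controls and 1.20 to 5.54 FPKM in the libraries labelled Foxl2-LSL (1 tested, without a call). Endothelium summed to 95.2 to 132 FPKM in controls and 64.4 to 71.0 FPKM in the libraries labelled Foxl2-LSL (4 of 5 tested genes lower). Leukocytes summed to 21.7 to 32.1 and 34.3 to 70.1 FPKM (2 of 4 higher), and stratified epithelium to 1.305 to 3.115 and 3.53 to 6.28 FPKM (1 of 1 higher). The stratified difference came from Krt13 (means 1.58 and 2.98 FPKM) and Krt5 (0.0447 and 1.38 FPKM, not tested). Krt14, Trp63, Dsg3 and Krt6a were below the level for testing and overlapped between the groups. These and later counts of markers are to be read against all tested genes, of which 16.7% were higher and 23.9% lower past the threshold. The part of these markers in the results that follow was not tested. Markers of fat summed to 16.3 FPKM in control 4 and to 27.2 and 51.0 FPKM in Foxl2-LSL 2 and 3, against 0.016 to 4.18 FPKM in the other 4 libraries. Epithelium was present in every library, with Epcam between 61.2 and 171 FPKM.

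The expressed ENaC subunits and 3 of the 4 chloride genes had lower levels in the libraries labelled Foxl2-LSL than in controls, Prss8 had a higher one, and Cftr and Sgk1 varied too widely within the groups to give a call. Of the 9 tested genes, 5 passed the threshold as lower and 1 as higher, where 23.9% and 16.7% of all tested genes did. The groups did not overlap in 6 of the 9, where they did not overlap in 47.6% of all tested genes. The median log2 fold change was -0.31 over the 9 genes and -0.05 over all tested genes. In either direction, 40.6% of all tested genes passed, and no test of the list was made. Group means are given ± SD over 3 controls and 4 libraries labelled Foxl2-LSL. In bulk tissue, fewer epithelial cells and less RNA per cell cannot be told apart.

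**Figure D1:**
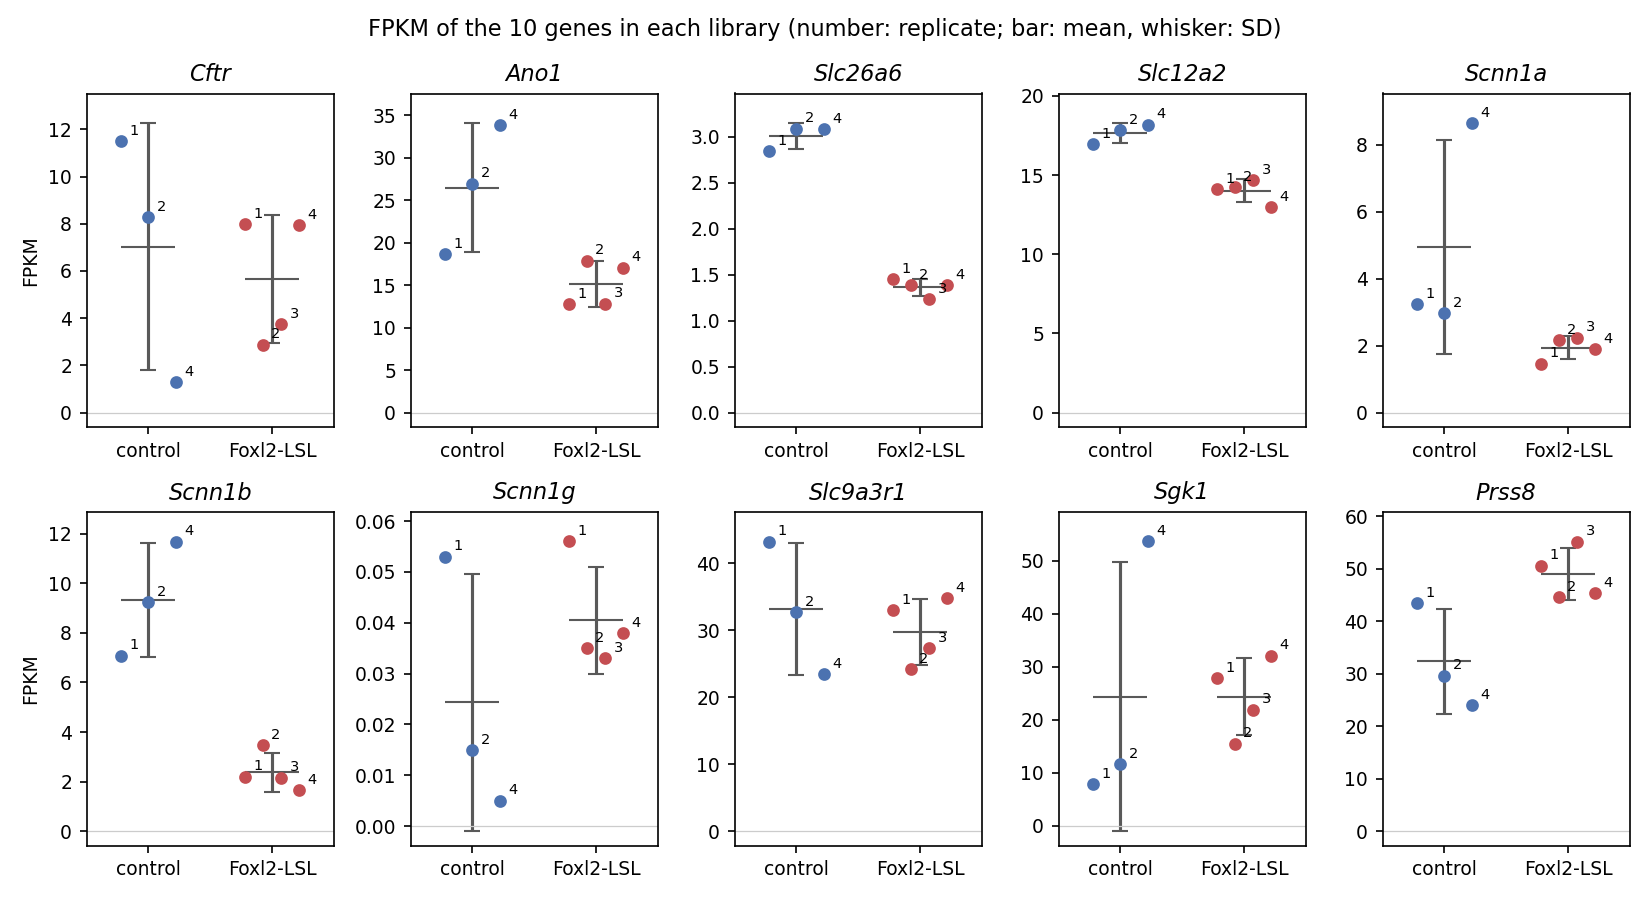
FPKM of each of the 10 genes (y axis, linear, a separate scale per panel) in the 3 control libraries (blue) and the 4 libraries labelled Foxl2-LSL (red), with the replicate number beside each point, the group mean as a horizontal bar and the SD as whiskers. Slc26a6, Slc12a2, Scnn1b, Scnn1a, Ano1 and Prss8 separate the groups, while Cftr and Sgk1 spread widely within the controls, with control 4 at 1.28 and 53.7 FPKM.

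ENaC was represented by its alpha and beta subunits. Scnn1b, the beta subunit, measured 7.09, 9.23 and 11.7 FPKM in controls 1, 2 and 4, against 2.20, 3.47, 2.16 and 1.66 FPKM in Foxl2-LSL 1 to 4. Every control lay above every library labelled Foxl2-LSL, and the control mean (9.33 ± 2.30 FPKM) was 3.93 times the mean of the others (2.37 ± 0.772 FPKM). The log2 fold change of Scnn1b was -1.62 (SE 0.21, limma adjusted p 0.00119), and it passed under all 19 alternatives tried. An exact permutation test (two-sided) gave p = 0.0571, the smallest that 3 libraries against 4 allow, as for each of the 6 genes whose groups did not overlap.

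Scnn1a, the alpha subunit that the channel cannot conduct without, was at 3.24, 2.98 and 8.65 FPKM in controls 1, 2 and 4, and Foxl2-LSL 1 to 4 gave 1.47, 2.17, 2.24 and 1.89 FPKM. The groups were separate, but control 4 alone was far above the rest, and without it the fall was smaller: the log2 fold change was -0.90 with all libraries (SE 0.30, limma adjusted p 0.0452) and -0.49 without control 4 (SE 0.13, limma adjusted p 0.0243). The call of Scnn1a lies close to the threshold and was lost in 10 of 18 alternatives, with an adjusted p of up to 0.0986 (limma).

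Scnn1g, the gamma subunit, was close to the floor of detection in every library. It had 10, 3 and 1 fragments in controls 1, 2 and 4 and 11, 5, 6 and 6 fragments in Foxl2-LSL 1 to 4, that is, 0.005 to 0.056 FPKM. The floor was taken as 3 fragments, and no fold is given. Scnn1g made up 0.0246% to 1.503% of the summed ENaC FPKM, whereas Scnn1b made up 67.1% ± 9.11 of it in controls, against 53.8% ± 7.45 in the libraries labelled Foxl2-LSL. These shares of Scnn1b overlapped, since control 4 (57.4%) lay below Foxl2-LSL 1 and 2 (59.1% and 61.1%). The sum of the 3 subunits was 10.4, 12.2 and 20.3 FPKM in controls, against 3.73, 5.68, 4.44 and 3.59 FPKM in Foxl2-LSL 1 to 4, with a gap between the groups.

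**Figure D2:**
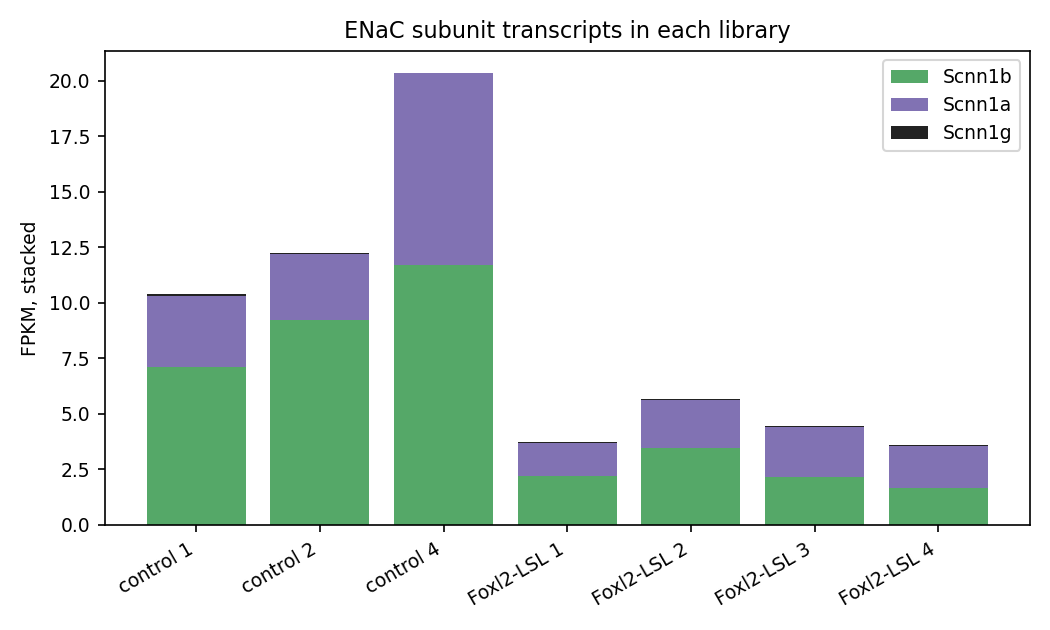
Stacked FPKM of Scnn1b, Scnn1a and Scnn1g (y axis, linear, from 0) in each of the 7 libraries (x axis). The bars of controls 1, 2 and 4 reach 10.4, 12.2 and 20.3 FPKM and those of the libraries labelled Foxl2-LSL reach 3.59 to 5.68 FPKM, and the Scnn1g layer is barely visible in any of them.

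Scnn1b and Scnn1g are neighbours on chromosome 7 (121865038 to 121918728 and 121734420 to 121768482, GRCm38.p6 in RefSeq, the same assembly as the mm10 build named by the submitters), 96556 bases apart, and Scnn1g was close to 0 where Scnn1b was not. Their promoter windows, from 250 bases before to 50 bases after a start site, are shown because these adjacent genes differ so widely in level. Both lie on the plus strand, at chr7:121864788-121865087 and chr7:121734229-121734528. Capitals mark every match, on either strand, to the GC box (GGGCGG), the GGTCA element read by many nuclear receptors, the AGAACA element shared by progesterone, glucocorticoid and mineralocorticoid receptors, or the forkhead core TGTTTAC.
Scnn1b: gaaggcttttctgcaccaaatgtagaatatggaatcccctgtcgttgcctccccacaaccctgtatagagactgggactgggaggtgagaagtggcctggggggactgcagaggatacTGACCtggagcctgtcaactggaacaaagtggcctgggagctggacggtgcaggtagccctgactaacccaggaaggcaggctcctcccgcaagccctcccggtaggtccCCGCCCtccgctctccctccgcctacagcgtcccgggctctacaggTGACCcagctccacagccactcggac
Scnn1g: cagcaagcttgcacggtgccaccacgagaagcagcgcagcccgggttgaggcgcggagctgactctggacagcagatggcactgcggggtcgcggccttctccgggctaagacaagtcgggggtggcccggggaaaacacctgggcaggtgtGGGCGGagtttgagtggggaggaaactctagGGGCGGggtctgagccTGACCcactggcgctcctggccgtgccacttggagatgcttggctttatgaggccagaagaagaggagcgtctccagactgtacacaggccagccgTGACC
The windows of Scnn1b and Scnn1g each held 2 GGTCA matches, with 1 and 2 GC boxes and no AGAACA match. Of all 32851 windows in the RefSeq table, 40.5% held GGTCA, 35.7% the GC box and 19% AGAACA. The GC content was 61.7% for Scnn1b and 64.7% for Scnn1g, against a median of 52.7%. In these letters the windows of the 2 genes differed by 1 GC box, and a match is only a description of sequence.

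Scnn1a lies on chromosome 6 (125314271 to 125344943), 386 bases from Ltbr. Ltbr was also lower (means of 32.2 and 24.2 FPKM, log2 fold change -0.40, limma adjusted p 0.00423), while Tnfrsf1a, on the other side of Scnn1a, had means of 34.2 and 35.7 FPKM (limma adjusted p 0.675). Cog7, beside Scnn1b, had means of 9.37 and 10.9 FPKM (limma adjusted p 0.198). Around the 9 genes whose location was looked up, 16 nearest protein-coding neighbours were listed and 9 of these tested. Of them 2, Ltbr and Usp31 (beside Scnn1g), passed as lower and 0 as higher, and the other 7 tested neighbours had no call. That is near the share of all tested genes that were lower (23.9%), so it is no result about neighbours.

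On the chloride side, Slc26a6, an apical exchanger of chloride for bicarbonate and other anions, gave the tightest separation. Its FPKM was 2.84, 3.09 and 3.09 in controls 1, 2 and 4, and 1.46, 1.38, 1.24 and 1.38 in Foxl2-LSL 1 to 4. The gap between the groups was several times the spread within either, and the means were 3.01 ± 0.142 and 1.365 ± 0.0919 FPKM. On the log2 scale the change was -0.76 (SE 0.09, limma adjusted p 0.000762) and the call was kept in all 18 alternatives that tested the gene. At least 180 fragments lay on Slc26a6 in each library.

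Ano1, a chloride channel opened by calcium that is also found in smooth muscle and in pacemaker cells, lies on chromosome 7 (144588549 to 144752026). Its FPKM was 18.7, 27.0 and 33.8 in controls 1, 2 and 4. In Foxl2-LSL 1 to 4 the values were 12.7, 17.9, 12.9 and 17.1 FPKM. Control 1 was only just above Foxl2-LSL 2, so the groups touched without overlapping. The log2 fold change of Ano1 was -0.75 (SE 0.21, limma adjusted p 0.0236), and -0.56 without control 4, where the call was lost (limma adjusted p 0.0529). The summed smooth muscle markers ranged from 827 to 1643 FPKM in controls and from 1468 to 1913 FPKM in the libraries labelled Foxl2-LSL, and of the 6 genes 2 passed as higher and 0 as lower. Their part in the value of Ano1 was not tested.

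Slc12a2, the sodium, potassium and chloride cotransporter that loads the cell with chloride from the blood side, had the smallest change with a call. Controls gave 17.0, 17.8 and 18.2 FPKM, and Foxl2-LSL 1 to 4 gave 14.1, 14.2, 14.7 and 12.99 FPKM. Both groups were tight, with SDs of 0.625 and 0.716 FPKM. The means were 17.65 and 14.01 FPKM, and the log2 fold change was -0.31 (SE 0.07, limma adjusted p 0.00854).

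Cftr, on chromosome 6 (18170687 to 18322770), varied more within the groups than between them. Controls 1, 2 and 4 gave 11.5, 8.29 and 1.28 FPKM, and Foxl2-LSL 1 to 4 gave 7.999, 2.88, 3.76 and 7.96 FPKM. The lowest value of all 7 was in control 4, and Foxl2-LSL 2 and 3 lay far below Foxl2-LSL 1 and 4. The log2 fold change was -0.05 with a 95% confidence interval of -1.43 to 1.33 (limma adjusted p 0.955), an interval that holds both a fall and a rise of 2-fold. Without control 4 the log2 fold change was -0.80 (interval -1.67 to 0.07, limma adjusted p 0.125). At least 531 fragments lay on Cftr in each library.

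The libraries with low Cftr were those with fat markers: control 4 and Foxl2-LSL 2 and 3. They also had the lowest summed estrogen response markers of their groups, with 149.6 FPKM in control 4 against 440.5 and 440.2 FPKM, and 1079 and 1610 FPKM in Foxl2-LSL 2 and 3 against 2614 and 2594 FPKM. With the fat markers as a covariate the log2 fold change of Cftr was 0.55 (limma adjusted p 0.299). Cftr was also set against the geometric mean of the 10 epithelial markers, which is not a measure of the amount of epithelium. As a percentage of that mean, Cftr was at 15.6, 14.8 and 3.11 in controls 1, 2 and 4. In Foxl2-LSL 1 to 4 it was at 9.83, 4.635, 4.84 and 10.35. The part of fat, of epithelial content and of hormone state in these values was not tested.

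**Figure D3:**
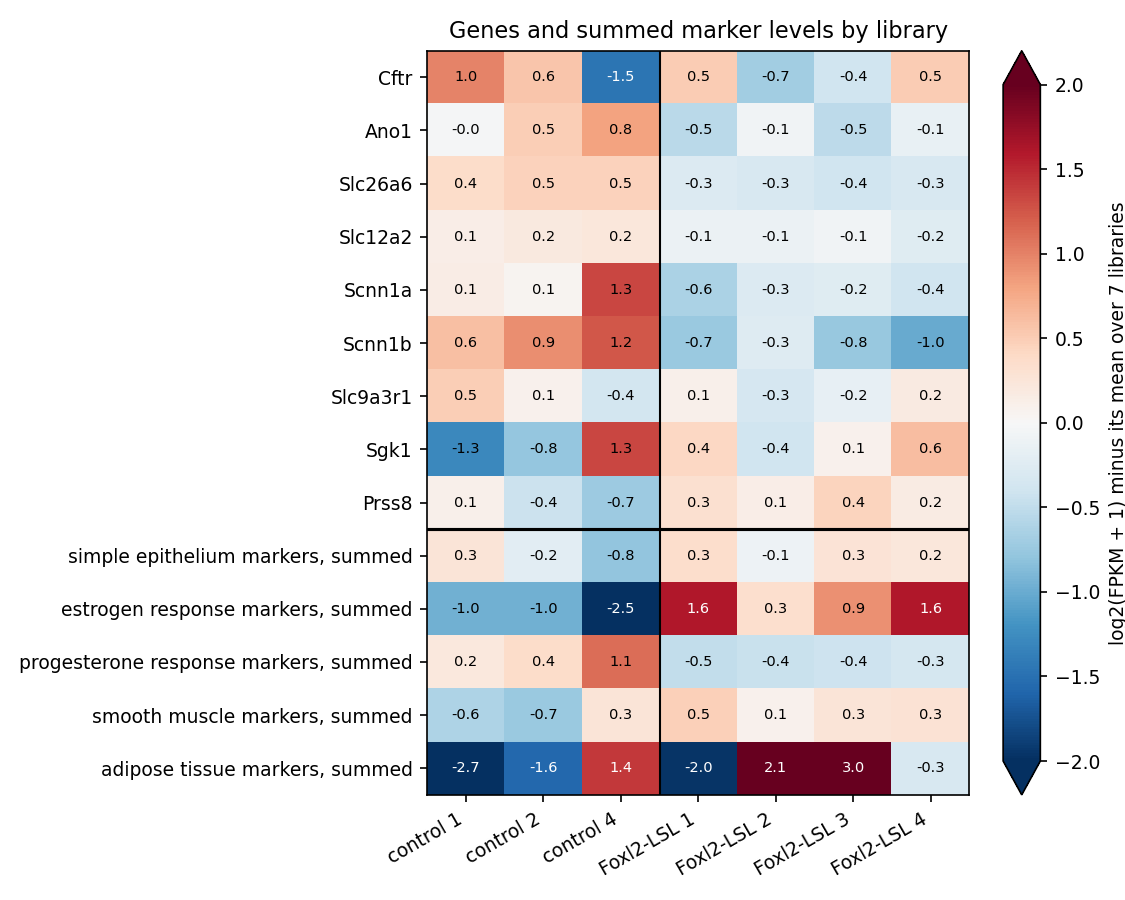
Deviation of log2(FPKM + 1) from its mean over the 7 libraries (colour and printed value) for the 9 tested genes (upper rows) and for the summed FPKM of 5 marker lists (lower rows), with libraries in columns and a vertical line between the groups. Control 4 is low in Cftr and high in Scnn1a and Sgk1, and Cftr is low in the 3 libraries in which the fat markers are highest.

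The genes whose pattern over the 7 libraries was most like that of Cftr were Mmp7, Acot11 and Cxcl16, with Pearson's r of log2(FPKM + 1) of 0.989, 0.986 and 0.9805. Mmp7, a matrix metalloprotease of epithelia, was at 7.95, 5.03 and 0.656 FPKM in controls 1, 2 and 4 and at 5.995, 1.52, 2.86 and 6.13 FPKM in Foxl2-LSL 1 to 4. For Scnn1a they were Adipor2, Slc5a11 and Nxpe3 (r of 0.995, 0.990 and 0.988), each highest in control 4. These values rank 13334 genes over 7 libraries that share their group labels, and are a description only.

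The promoter windows of Cftr (chr6:18170437-18170736, plus strand) and Ano1 (chr7:144738524-144738823, minus strand) are shown with the same capitals, as the 2 apical chloride channels of the set, of which Ano1 was lower and Cftr had no call.
Cftr: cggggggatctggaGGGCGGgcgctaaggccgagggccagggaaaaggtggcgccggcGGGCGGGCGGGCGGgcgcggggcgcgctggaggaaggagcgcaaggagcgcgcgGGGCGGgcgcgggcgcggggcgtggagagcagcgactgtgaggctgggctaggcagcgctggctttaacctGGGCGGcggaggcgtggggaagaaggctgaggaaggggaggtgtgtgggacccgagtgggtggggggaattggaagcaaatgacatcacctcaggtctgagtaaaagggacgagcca
Ano1: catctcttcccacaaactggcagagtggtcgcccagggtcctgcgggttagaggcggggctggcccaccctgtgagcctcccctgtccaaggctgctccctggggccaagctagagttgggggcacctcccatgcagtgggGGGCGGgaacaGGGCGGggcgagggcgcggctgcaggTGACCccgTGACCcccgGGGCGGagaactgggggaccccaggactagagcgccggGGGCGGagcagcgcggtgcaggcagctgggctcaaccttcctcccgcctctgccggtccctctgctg
The Cftr window held 6 GC boxes and 31 CG pairs, and neither receptor element. The Ano1 window held 4 GC boxes and 2 GGTCA matches, at -72 and -64 from its start site. That start site lies inside the span of the gene (144588549 to 144752026), not at its outer end. FPKM per gene does not tell whether it was used. Windows from the RefSeq table were read for 7 of the 10 genes, 12 windows in all. Scnn1a and Prss8 had no window there, and Slc12a2 was not looked up. None of the 12 windows held the forkhead core TGTTTAC on either strand, which 3.65% of all windows held. No match says only that these letters are not in these 300 bases.

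Sgk1 and Prss8 act on ENaC from different sides. Sgk1, the kinase that glucocorticoids and mineralocorticoids induce and that keeps ENaC at the membrane by restraining the ubiquitin ligase Nedd4l, had 7.87, 11.6 and 53.7 FPKM in controls 1, 2 and 4. In Foxl2-LSL 1 to 4 its FPKM was 27.8, 15.5, 21.9 and 32.1. All 4 lay above controls 1 and 2 and below control 4. The log2 fold change was 0.42 (SE 0.58, limma adjusted p 0.593) with all libraries and 1.21 without control 4 (SE 0.28, limma adjusted p 0.0129), so control 4 decides whether Sgk1 is called higher.

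Sgk1 has several start sites on chromosome 10 (21882184 to 21999903). The window printed here, at chr10:21993640-21993939 on the plus strand, is shown because it held the most AGAACA matches of the 6 Sgk1 windows.
Sgk1: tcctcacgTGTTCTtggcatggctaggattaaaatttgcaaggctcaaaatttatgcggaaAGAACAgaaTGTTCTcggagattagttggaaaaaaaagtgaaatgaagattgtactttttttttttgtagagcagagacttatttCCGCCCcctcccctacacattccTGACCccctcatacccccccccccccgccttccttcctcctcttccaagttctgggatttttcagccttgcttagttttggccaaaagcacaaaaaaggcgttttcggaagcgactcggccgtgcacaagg
It held 3 AGAACA matches (at -242, -189 and -180), 1 GC box and 1 GGTCA match. Of the 12 windows of these genes, AGAACA was found in 3, all of them of Sgk1. FPKM per gene does not tell which start site was used.

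Prss8, the membrane-anchored protease prostasin that activates ENaC by cutting its gamma subunit, was the only one of the 9 tested genes called higher. It lies on chromosome 7 (127925717 to 127930149). Controls 1, 2 and 4 gave 43.4, 29.6 and 24.0 FPKM, and Foxl2-LSL 1 to 4 gave 50.6, 44.5, 55.1 and 45.4 FPKM. The lowest library labelled Foxl2-LSL was just above control 1. The means were 32.4 ± 9.97 and 48.9 ± 4.95 FPKM, and the difference on the log2 scale was 0.62 (SE 0.18, limma adjusted p 0.0313). Prss8 was thus the most abundant of the 10 in the libraries labelled Foxl2-LSL, while its substrate subunit Scnn1g was at most 0.056 FPKM. The call was lost without control 4 (limma adjusted p 0.067) and in 8 other alternatives of 19.

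Slc9a3r1, the scaffold NHERF1 that ties CFTR to the apical cytoskeleton through ezrin, lies on chromosome 11 (115163341 to 115181178). Its FPKM was 43.2, 32.7 and 23.5 in controls 1, 2 and 4, and 32.9, 24.2, 27.3 and 34.7 in Foxl2-LSL 1 to 4. The groups overlapped fully (log2 fold change -0.12, 95% confidence interval -0.60 to 0.36, limma adjusted p 0.669).

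**Figure D4:**
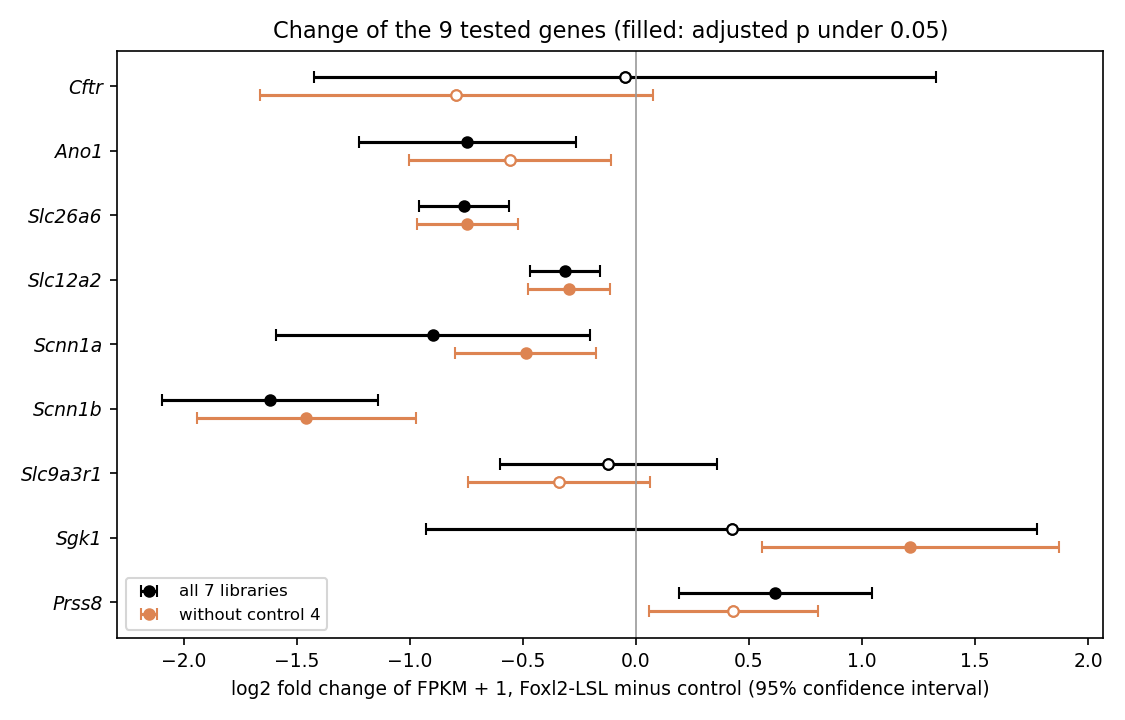
Log2 fold change on the log2(FPKM + 1) scale, libraries labelled Foxl2-LSL minus controls (x axis), with its 95% confidence interval from limma for the 9 tested genes (rows), with all 7 libraries (black) and without control 4 (orange); filled points have an adjusted p under 0.05. Scnn1b, Slc26a6 and Slc12a2 hardly move when control 4 is left out, Sgk1 moves from 0.42 to 1.21 and Cftr from -0.05 to -0.80.

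The levels were also set against epithelial markers, which were themselves unequal between libraries. Ano1, Sgk1, Scnn1b and Slc12a2 rank in the opposite order to these markers over controls 1, 2 and 4. The cell types that hold each gene were not measured. The geometric mean of the 10 simple epithelium markers was 73.6, 56.1 and 41.2 FPKM in controls 1, 2 and 4 and 81.4, 62.1, 77.8 and 76.9 FPKM in Foxl2-LSL 1 to 4. Of the 10 markers 3 (Krt18, Esrp2 and Grhl2) were higher past the threshold and 0 lower. As a percentage of that geometric mean, Slc9a3r1 was nearly constant in controls, at 58.7, 58.3 and 56.9, and lay at 40.5, 38.9, 35.04 and 45.2 in Foxl2-LSL 1 to 4. On the same scale Prss8 was at 59.0, 52.9 and 58.3 in controls and at 62.2, 71.7, 70.9 and 59.0 in Foxl2-LSL 1 to 4, with little left between the groups. Scnn1b was at 9.62, 16.5 and 28.3 in controls and at 2.71, 5.59, 2.78 and 2.16 in Foxl2-LSL 1 to 4, still without overlap. Undivided, the controls of Scnn1b were at 7.09, 9.23 and 11.7 FPKM, so dividing by the markers widened their spread.

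When each library was centred on the mean of these markers, the log2 fold change was -2.02 for Scnn1b (limma adjusted p 2.84e-06), -1.30 for Scnn1a (limma adjusted p 0.00316), -1.17 for Slc26a6 (limma adjusted p 0.00231) and -1.15 for Ano1 (limma adjusted p 0.00226). That centring moved the median of all tested genes from -0.05 to -0.46, so the values are to be read against that shift. It left 0 genes higher and 5 lower of the 9, since Prss8 lost its call (log2 fold change 0.21, limma adjusted p 0.454). Of all 13334 tested genes, 427 were then higher and 4007 lower. Slc9a3r1 was at -0.53 (limma adjusted p 0.0691), near the shift of all genes. All 5 called genes, Slc12a2 among them (log2 fold change -0.72, limma adjusted p 0.0263), lay below that shift. The markers of uterine glands summed to 64.45 to 95.3 FPKM in controls and to 19.3 to 23.6 FPKM in the libraries labelled Foxl2-LSL, with 3 of 3 tested genes lower. Their part in these falls was not tested.

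The order of the levels changed little between the groups. In controls the means ran from Slc9a3r1 (33.1 FPKM), Prss8 (32.4), Ano1 (26.5), Sgk1 (24.4) and Slc12a2 (17.7 FPKM) through Scnn1b, Cftr and Scnn1a (9.33, 7.03 and 4.95 FPKM) to Slc26a6 (3.01) and Scnn1g (0.0243 FPKM). Only Slc12a2 and Scnn1b, and Slc26a6 and Scnn1g, were neighbours in this order whose ranges did not overlap. In the libraries labelled Foxl2-LSL, Prss8 was first and Cftr (5.65 FPKM) stood above Scnn1b (2.37 FPKM), with overlapping ranges. Cftr relative to the mean of Scnn1a and Scnn1b was 2.23, 1.36 and 0.126 in controls 1, 2 and 4 and 4.36, 1.02, 1.71 and 4.48 in Foxl2-LSL 1 to 4. The ratio thus spanned more within either group than between their means (1.24 and 2.89).

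A further 89 genes of epithelial ion transport, grouped by role, were read from the same comparison. Of these, 69 were tested, and 19 were higher and 12 lower past the threshold, which is 31 of 69 where 40.6% of all tested genes passed. By direction, 16.7% of all tested genes were higher and 23.9% lower, and the counts by role below are to be read against these shares. The median log2 fold change of the 69 genes was 0.18, against -0.05 over all tested genes. Centred on the epithelial markers the split was 8 higher and 17 lower, where all tested genes gave 427 and 4007. With no filter on low values the split of the list was 14 and 14, where all tested genes gave 2434 and 3370. The balance of directions thus depends on the scaling and the filter.

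Among anion channels and exchangers, 4 of 14 tested genes were higher and 3 lower. Clca1, a secreted protein that modulates calcium-activated chloride channels, rose by 5.60 on the log2 scale, with means of 9.575 ± 1.645 and 523 ± 141 FPKM. Reads shared within the Clca family cannot be judged from the table. Clcn2, a chloride channel of epithelial cells, rose by 1.27 (means 13.5 ± 1.06 and 34.4 ± 5.58 FPKM). Clca2 (means 1.998 and 0.499 FPKM) and Slc4a4, the sodium bicarbonate cotransporter that brings bicarbonate in from the blood side (3.46 and 1.375 FPKM), were lower, at -0.99 and -0.91. The channels Cftr and Ano1 thus stood beside other genes of this group that moved in either direction.

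Of 4 listed carbonic anhydrases, enzymes that make the bicarbonate that CFTR and its partner exchangers secrete, 3 were tested and were higher. The fourth, Car4, was below the level for testing and lay lower, at 0.837, 1.19 and 0.527 FPKM in controls 1, 2 and 4 and at 0.023, 0.403, 0.216 and 0.132 FPKM in Foxl2-LSL 1 to 4, without overlap. Car12 rose from 7.77 ± 1.58 to 75.2 ± 24.5 FPKM, Car2 from 56.8 ± 19.2 to 213 ± 26.7 FPKM and Car9 from 2.97 ± 0.266 to 5.39 ± 0.468 FPKM. On the log2 scale these were changes of 3.08, 1.94 and 0.69 (limma adjusted p 0.000295, 0.00102 and 0.00138). In controls, Car2 was lowest in control 4 (34.9 FPKM), as Cftr was. Car9 lost its call when libraries were centred on the epithelial markers.

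In the group of cotransporters, sodium pump and potassium exit, 6 of 17 tested genes were higher and 3 lower. The pump regulators Fxyd3 and Fxyd4 rose from 42.6 ± 3.57 to 127 ± 12.7 FPKM and from 150.5 ± 168 to 402 ± 48.6 FPKM (log2 fold changes 1.56 and 2.02). Fxyd4 was at 39.6, 68.4 and 343 FPKM in controls 1, 2 and 4, the same order as Sgk1 there, and its call was lost in 10 of 19 alternatives. Kcnn4, a potassium channel opened by calcium that helps drive chloride out, rose from 3.48 ± 2.30 to 10.6 ± 1.998 FPKM (log2 fold change 1.52, limma adjusted p 0.0147), and by 1.02 on the log2 scale without control 4, where it was at 0.995 FPKM against 3.93 and 5.53 FPKM in controls 1 and 2. Atp1b1, the beta subunit of the sodium pump, fell from 78.5 ± 55.5 to 30.7 ± 1.56 FPKM (a change of -1.11 on the log2 scale), with control 4 at 142 FPKM against 47.2 and 45.7 FPKM. The call of Atp1b1 (limma adjusted p 0.0426) was lost in 8 of 19 alternatives, among them leaving out any 1 of the libraries labelled Foxl2-LSL (limma adjusted p 0.0785 to 0.0904). Without control 4 its log2 fold change was -0.58 (limma adjusted p 0.00143).

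Genes that control ENaC moved both ways, with 2 of 8 tested higher and 2 lower, where 16.7% and 23.9% of all tested genes were. The receptors that bind mineralocorticoid and glucocorticoid, Nr3c2 and Nr3c1, rose from 0.643 ± 0.223 to 2.18 ± 0.551 FPKM and from 6.90 ± 0.979 to 10.4 ± 0.805 FPKM (log2 fold changes 0.95 and 0.53). Usp2, a deubiquitinase reported to act on ENaC, and Sgk3, a relative of Sgk1, fell (log2 fold changes -1.105 and -0.65). Nedd4, the ubiquitin ligase with the highest level of the group, was at 167 ± 15.5 and 150.3 ± 8.72 FPKM (limma adjusted p 0.215). The calls of Nr3c2 and Nr3c1 were lost on centring to the epithelial markers.

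Of the 10 channel-activating proteases and their inhibitors, all tested, 2 were higher and 2 lower. These counts are near the shares of all tested genes (16.7% and 23.9%). Spint2, a membrane inhibitor of proteases such as Prss8, rose from 133 ± 41.1 to 281 ± 39.3 FPKM (log2 fold change 1.11), so that the protease and its inhibitor were both higher. Serpine2, a secreted inhibitor known to act on prostasin, fell by 1.75 on the log2 scale (means 46.4 ± 9.76 and 12.9 ± 1.01 FPKM). Furin, which makes the first cuts in ENaC, fell by 0.28 on the log2 scale (limma adjusted p 0.0161). Tmprss4 rose by 0.87 with an adjusted p of 0.0496 (limma), and its call was lost in 12 of 19 alternatives.

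In the group that signals to CFTR through cyclic nucleotides or purines, 2 of 12 tested genes were higher and 1 lower. That is no more than the shares of all tested genes (16.7% higher and 23.9% lower), so it is no result about the group. Ptger4, a prostaglandin E2 receptor that raises cyclic AMP, rose from 9.61 ± 3.74 to 21.0 ± 1.95 FPKM, and Adcy6, an adenylyl cyclase, from 45.8 ± 7.54 to 66.5 ± 3.48 FPKM (log2 fold changes 1.11 and 0.54). Centred on the epithelial markers, both lost their calls (limma adjusted p 0.0505 and 0.651). Stx1a, a syntaxin that binds CFTR, fell by 0.73 on the log2 scale (means 7.70 ± 0.897 and 4.27 ± 0.851 FPKM). Ezr, the ezrin that anchors NHERF1, had the highest level of this group, at 91.6 ± 24.1 and 113 ± 12.7 FPKM (limma adjusted p 0.169). Of sodium-proton exchange and other apical sodium entry only Slc9a3r2, the scaffold NHERF2, passed among 5 tested genes, at -0.82 on the log2 scale (means 44.9 ± 6.65 and 24.8 ± 1.26 FPKM), whereas its relative Slc9a3r1 had no call.

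**Figure D5:**
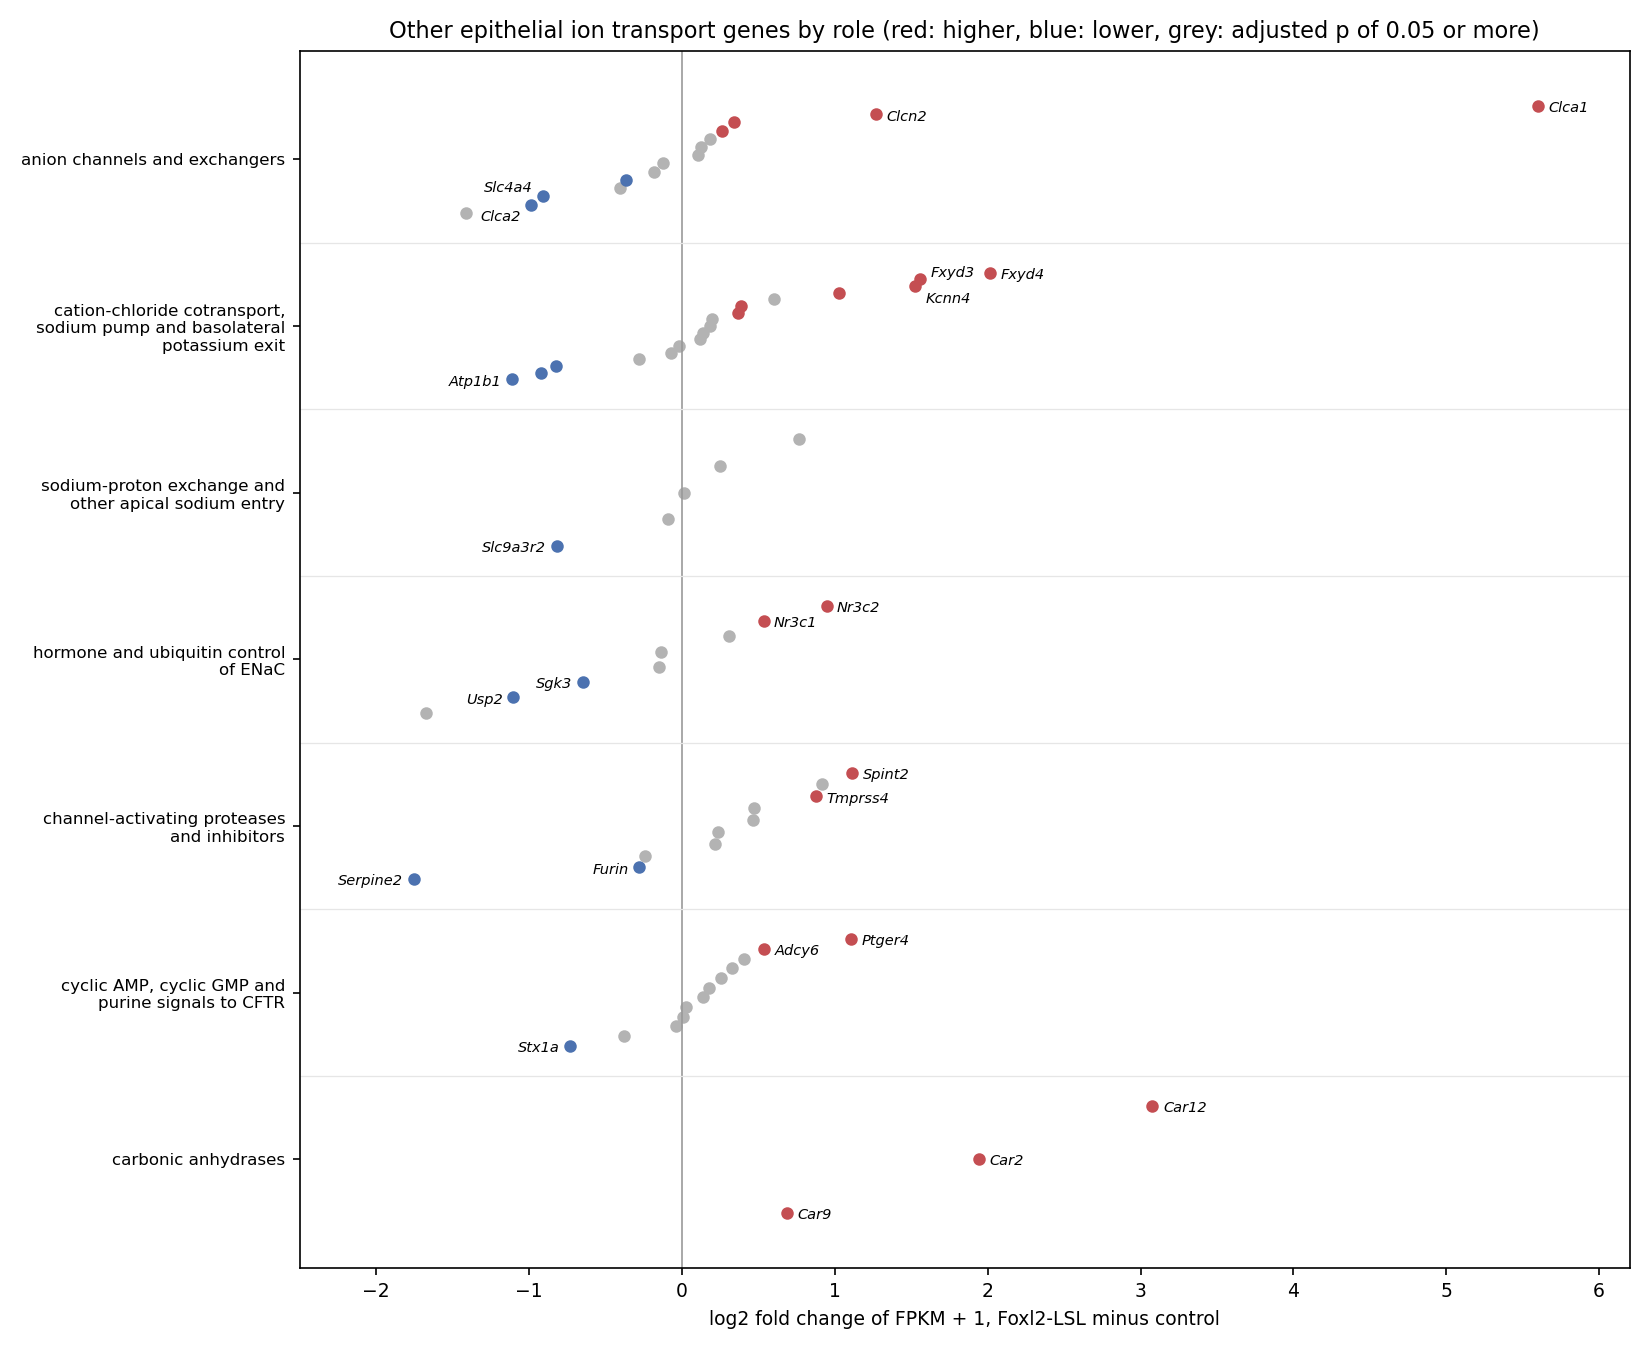
Log2 fold change on the log2(FPKM + 1) scale, libraries labelled Foxl2-LSL minus controls (x axis), of the 69 tested genes of the wider list, in rows by role; red and blue points passed an adjusted p of 0.05 as higher and lower, grey points did not, and up to 4 called genes per role are named. The 3 tested carbonic anhydrases lie to the right of 0 (Car4, not tested, is not drawn), Clca1 is far right at 5.60, and the other groups hold points on both sides.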

How the data were processed

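RNA sequencing was done on whole uterus, in 3 control libraries and 4 libraries labelled Foxl2-LSL. RNA was extracted with TRIzol, per the labels' protocols. The authors deposited 1 table of FPKM values with 1 column per library and, per the file headers, another column with the length of each gene. STAR 2.5.2b, featureCounts 1.5.0-p1, Subread, DESeq2 1.12.4 and the build mm10 are named in the submitters' processing notes, without their roles. Annotation, strand and filters are not given in the sources used here.

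Fragment numbers were recovered from FPKM and gene length: of 1647 to 1819 low values per library (genes of up to 1500 bases, up to 20 fragments), 100% came within 0.1 of an integer, against 20% by chance. The denominators were 47800000 to 67300000 fragments, of which 74.4% to 77.5% lay on listed genes. Fragment numbers carry counting error only. No library was a copy of another (chi-square per gene of at least 21.4 within groups).

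Genes whose mean FPKM reached 1 were tested with limma 3.58.1 in R 4.3.3 (lmFit, eBayes with an intensity trend) on log2(FPKM + 1), with Benjamini-Hochberg adjustment over 13334 genes, of which 5409 passed 0.05. Single genes also got a two-sided exact permutation test (scipy 1.17.1). On simulated data for this comparison with 13334 genes, 200 of 200 genes changed by 1 on the log2 scale were recovered and 16 unchanged genes were called. The simulation gave all genes the same small dispersion, changed none of the lowest genes and had no shifts in tissue content between libraries. These counts therefore check that the fit runs as intended, and do not give the power or the false calls in the real libraries. The labels do not say that libraries came from separate animals, so p-values measure the spread between these libraries. No block was used, since the labels do not say that replicate numbers pair animals (see also the closing part on processing).

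The members and all gene lists were chosen with earlier results of these data known, so no list is independent evidence. Named genes are the 10 members, Foxl2, in each role group up to 4 called genes with the largest change and the gene with the highest level, the 3 most like Cftr and Scnn1a, and neighbours. Promoter windows and coordinates are from RefSeq on GRCm38.p6. Alternatives covered scaling, pseudocount, filter, trend, limma-voom, the replicate block, left-out libraries and a fat covariate. Python 3.11.15 with numpy 2.4.6, pandas 2.3.3 and matplotlib 3.10.9 was used.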

Additional observations from a re-analysis of the deposited data

Results flagged for a closer look

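Stx1a, the syntaxin that binds CFTR, had an outlying library within the libraries labelled Foxl2-LSL. It was at 2.999 FPKM in Foxl2-LSL 3 and at 4.66, 4.68 and 4.75 FPKM in the other 3, a gap of 0.944 of the range, above Dixon's limit for 4 libraries. This was the only such value among the 36 genes looked at in this way, and chance marks about 1 in 20 groups.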

How the results depend on the processing

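Results were recomputed under 19 alternatives, 18 planned and 1 (fat markers as a covariate) chosen after seeing the data. The block cannot be taken as a pairing, since the labels do not say that the numbers pair animals. Deviations of same-numbered libraries correlated at 0.228, -0.0588 and -0.0587 for numbers 1, 2 and 4. Differently numbered libraries were not compared in this way, so these values cannot decide whether libraries were paired. With the replicate block 3243 genes, 3 of the 9 genes described and 20 of the wider list passed, against 5409, 6 and 31. The same 6 libraries without the block gave 3 of the 9. Leaving out single libraries gave 3 to 6 of the 9, 3853 to 5328 of all genes and 25 to 34 of the wider list. The share of higher genes among all calls was 41.1%, 50.4% after median centring and 9.63% after centring on epithelial markers. Below, values are log2 fold changes, and the cause of each change was not tested.

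Cftr changed sign in 11 alternatives, never past the threshold: 0.00247 with median centring, 0.000441 with quantile normalization, 0.0299 with pseudocount 0.1, 0.0673 with limma-voom, 0.0787 with the replicate block and on the same libraries without it, 0.549 with the fat covariate, and -0.80 to 0.43 with single libraries left out. Slc9a3r1 was at 0.0724 with the fat covariate and -0.34 to 0.0862 with libraries left out. Sgk1 ranged from -0.0983 (without control 1) to 1.21 (without control 4). Scnn1a lost its call at -0.85 with median centring, -0.84 with quantile normalization, -0.90 without a filter, -1.20 with limma-voom and -0.95 with the block and on its libraries without it, and ranged from -1.13 to -0.49 with libraries left out, where each Foxl2-LSL library was needed for the call. Prss8 lost its call at 0.21 on epithelial markers, 0.62 without a filter and 0.56 with the block and on its libraries without it, and ranged from 0.43 to 0.84, losing it without control 2 or 4 or Foxl2-LSL 1, 3 or 4. Ano1 lost it at -0.68 on the 6 libraries without the block, ranged from -0.97 to -0.56, and lost it without control 2 or 4 or Foxl2-LSL 1 or 3. Slc12a2 lost it at -0.34 with the block (limma adjusted p 0.0521), as did Kcnn4 (0.0809), Furin (0.0734), Adcy6 (0.0543), Atp1b1 (0.103), Fxyd4 (0.084) and Tmprss4 (0.076) of the wider list, adjusted p in brackets. Scnn1b and Slc26a6 lost no call. Of 25 named genes of the wider list, 14 kept their side of the threshold throughout, and Ezr changed sign, at -0.0762 on epithelial markers. Foxl2 did so at -0.35 on epithelial markers, -0.0999 without control 1 and -0.0132 without Foxl2-LSL 4, and reached 0.2752 without control 2. Scnn1a and Slc26a6 were not testable at a mean FPKM of at least 5. The difference in the share of Scnn1b was -13.3 percentage points and ranged from -18.1 to -9.08 with libraries left out. The designed log2 ratio of Cftr to 3 ENaC subunits differed by 0.667, by 1.64 over Scnn1a and Scnn1b only (chosen after seeing the data), and by -0.255 to 1.14 with libraries left out.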

Other observations

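Further ion transport genes, chosen after their values were seen, also varied widely between libraries of the same group. Slc26a9, an apical chloride channel and partner of CFTR in other epithelia, was at 15.1, 5.15 and 0.448 FPKM in controls 1, 2 and 4 and at 1.30, 0.311, 0.713 and 1.86 FPKM in Foxl2-LSL 1 to 4 (limma adjusted p 0.153). Controls 1 and 2 were above every library labelled Foxl2-LSL, and control 4 was among the lowest, as for Cftr. Hsd11b2, the enzyme that keeps cortisol-like steroids from the mineralocorticoid receptor, was at 34.2, 132 and 206 FPKM in controls 1, 2 and 4 and at 58.2, 12.3, 21.7 and 51.0 FPKM in Foxl2-LSL 1 to 4 (limma adjusted p 0.0959). Within the libraries labelled Foxl2-LSL, numbers 1 and 4 were highest in Hsd11b2, Slc26a9, Cftr and Sgk1 alike. Slc5a1, a sodium and glucose cotransporter, was at 4.32, 1.01, 2.20 and 3.78 FPKM there and at 0.930 to 1.41 FPKM in controls (limma adjusted p 0.0917).

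Foxi1, the transcription factor of ionocytes, cells that carry much of the CFTR of some epithelia, was below the level for testing. It was at 0.007, 0.006 and 0.026 FPKM in controls 1, 2 and 4 and at 0.285, 0.169, 0.175 and 0.202 FPKM in Foxl2-LSL 1 to 4. The groups were separate at these low levels. Of the other ionocyte markers, Atp6v1g3 was at 0 in every library, Ascl3 reached at most 0.281 FPKM, and Atp6v0d2, the only one tested, was at 0.655 to 0.784 FPKM in controls and at 0.920 to 5.23 FPKM in the libraries labelled Foxl2-LSL without a call.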
